A study of Mus musculus with 4 samples.

Results

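Dusp1, Dusp2, Dusp5, Dusp6, Spry1, Spry2 and Spred1 are 7 genes whose products restrain mitogen-activated protein (MAP) kinase signalling. They were chosen by name, as MAP kinase phosphatases and Sprouty family members, out of the 27998 genes counted in each library. All 7 reached 10 CPM, counts per 1000000, in all 4 libraries. LMPPs, the lymphoid-primed multipotent progenitors that give rise to lymphocytes and some myeloid cells, were sorted from C57BL/6 mouse marrow, and their transcripts were counted cell by cell in 10x Genomics droplets. Each of 4 groups has 1 library. The control mice kept RBPJ, the DNA-binding partner of activated Notch, throughout, and the uninduced mice lacked it. The remaining libraries come from mice that first lacked RBPJ and in which doxycycline then switched it on, for 3 days in one library and 6 days in the other. Mice received doxycycline as an intraperitoneal injection of a 2 mg/ml solution and drank water containing 1 mg/ml. The labels carry that text for all 4 libraries, so whether control and uninduced mice received the drug is not stated. The sources used here give neither the age and sex of the mice nor how RBPJ was removed, which cells the doxycycline-driven gene works in, or how many mice went into a library.

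MAP kinases carry signals from receptors such as Flt3, Kit and the interleukin-7 receptor, through RAS, RAF and MEK, to the kinase ERK and its relatives p38 and JNK. Dusp1, Dusp2 and Dusp5 encode nuclear phosphatases that strip the activating phosphates from MAP kinases. Dusp5 acts on ERK, Dusp1 mostly on p38 and JNK, and Dusp6 encodes a cytoplasmic phosphatase of ERK. Sprouty proteins act further up, between the receptor and RAF, and Spred1 brings the RAS inhibitor neurofibromin to the membrane. Many of these genes are switched on by the pathway they restrain, which makes their transcripts a record of recent signalling as well as a brake on it.

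The bases just upstream of Dusp1 and Dusp5 are printed because these genes gave the 2 clearest patterns between libraries, and they were chosen after those patterns were seen. Both are the 250 bases before the RefSeq start on GRCm38.p6, read on the gene's own strand. Capitals mark the cAMP response element TGACGTCA in Dusp1, at chr17:26508473-26508722 on the minus strand, and 2 adjoining CArG boxes, the site of serum response factor, in Dusp5, at chr19:53528895-53529144 on the plus strand.
Dusp1: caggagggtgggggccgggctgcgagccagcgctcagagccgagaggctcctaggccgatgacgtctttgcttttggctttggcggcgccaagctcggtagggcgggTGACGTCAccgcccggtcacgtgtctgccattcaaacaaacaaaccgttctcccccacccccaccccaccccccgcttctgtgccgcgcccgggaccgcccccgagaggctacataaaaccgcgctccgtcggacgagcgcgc
Dusp5: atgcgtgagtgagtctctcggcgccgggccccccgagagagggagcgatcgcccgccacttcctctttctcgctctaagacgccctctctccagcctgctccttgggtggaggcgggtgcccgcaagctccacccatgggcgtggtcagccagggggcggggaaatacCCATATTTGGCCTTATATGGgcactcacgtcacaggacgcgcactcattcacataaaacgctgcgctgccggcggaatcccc
The last base of the element in Dusp1 lies 136 bases before the start, and those of the boxes in Dusp5 lie 73 and 63 bases before it. All 7 genes matched the RefSeq promoter table. A CArG box was found, on either strand, in 1 of 7 members and in 1.47% of 32851 upstream windows of the same length. TGACGTCA was found in 1 of 7 members and in 1.55% of windows, and the RBPJ word TGGGAA in 1 of 7 members (Dusp2, 202 bases before the start) and in 21.6% of windows. TGANTCA, the word of AP-1, and CCGGAAG, a word of ETS factors, were in none of the 7 windows, against 6.75% and 6.91% of all. No marked site overlapped another. These are matches of letters and no binding was measured.

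The libraries held 2693 control, 2769 uninduced, 1292 3-day and 2129 6-day cells, with a median of 6774 to 7920 unique transcript counts (UMIs) per cell and 10647894 to 23504158 in all. Rbpj stood at 17.8, 11.2, 508 and 485 CPM in that order, and its target Hes1 at 89.7, 18.0, 43.5 and 129 CPM. The uninduced Rbpj level was 0.631-fold (0.535 to 0.742) of control and not 0, and since the deleted stretch of Rbpj is not given, its counts do not show how much intact transcript was left. The LMPP markers Flt3 (191 to 223 CPM), Cd34 (411 to 484 CPM) and Kit (44.2 to 60.8 CPM) were present in all 4. Cells with 1% or more of their UMIs from genes of mature or other lineages made up 0.334%, 1.34%, 1.86% and 2.16%, and the 15 mature neutrophil and monocyte genes summed to 1447, 4034, 4812 and 3442 CPM, with none at 0. The libraries shared 49 cell barcodes over the 6 pairs of libraries, from 2 to 17 a pair. With 1 library per group no test between groups was possible. Intervals on levels, folds and shares are 95% and cover counting error only.

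Between libraries, Dusp1 was high in uninduced and 3-day cells and low in control and 6-day cells, whereas Dusp5 and Spry2 were lowest in 3-day cells. Dusp2, Dusp6 and Spry1 differed by less than 1.5-fold between any pair of libraries on the scale used here, and the 4 intervals of Spred1 all overlapped. Levels are in CPM, taken over all UMIs of a library's cells. A gene is called different when it reaches 10 CPM in either library and 1.5-fold after adding 1 CPM to both.

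Dusp1, the phosphatase of p38 and JNK, had its lower levels in control cells, at 196 CPM (191 to 202), and 6-day cells, at 212 CPM (205 to 219). It had its higher levels in uninduced cells, at 364 CPM (356 to 373), and 3-day cells, at 395 CPM (383 to 407). No neighbours in that order overlapped in their intervals, and the step from the lower to the higher pair was far wider than those within a pair. Uninduced cells stood 1.86-fold (1.79 to 1.93) above control. The 3-day library stood 2.01-fold (1.93 to 2.10) above control, and the 6-day library 0.581-fold (0.558 to 0.604) of uninduced and 0.536-fold (0.513 to 0.561) of 3-day cells.

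Dusp5, the nuclear phosphatase of ERK, stood at 41.9 CPM (38.1 to 46.0) in 3-day cells, against 71.7 CPM (68.3 to 75.2) in control, 84.4 CPM (80.5 to 88.4) in uninduced and 84.9 CPM (80.6 to 89.3) in 6-day cells. The 3-day library was apart from the other 3, and the uninduced and 6-day intervals overlapped. The 3-day level was 0.496-fold (0.446 to 0.551) of uninduced and 0.584-fold (0.525 to 0.649) of control, and the 6-day level was 2.03-fold (1.82 to 2.26) of 3-day.

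Spry2, which blocks RAS-ERK signalling below receptor tyrosine kinases, stood at 17.0 (15.4 to 18.8), 22.4 (20.4 to 24.5), 11.6 (9.69 to 13.9) and 20.3 (18.3 to 22.6) CPM in control, uninduced, 3-day and 6-day libraries. Its 3-day interval lay below the other 3, while the control and 6-day and the 6-day and uninduced intervals overlapped. The 3-day level was 0.520-fold (0.423 to 0.635) of uninduced, and the 6-day level was 1.75-fold (1.42 to 2.16) of 3-day. After each cell was thinned to 4700 UMIs the log2 ratio of 3-day to uninduced moved from -0.89 to -0.47, short of 1.5-fold, while that of Dusp5 went from -0.99 to -0.96.

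Spry1, the relative of Spry2, stood at 14.9, 19.4, 12.7 and 14.7 CPM. Only the uninduced interval (17.6 to 21.4) lay above the rest. The 3-day level was 0.653-fold (0.533 to 0.795) of uninduced, just short of a 1.5-fold difference on the CPM + 1 scale with a log2 ratio of -0.58. Dusp2 stood at 381, 487, 420 and 507 CPM, with overlap between the uninduced (478 to 497) and 6-day (496 to 517) intervals. Its widest ratio was 1.33-fold (1.29 to 1.37), 6-day over control. Dusp6, the cytoplasmic phosphatase of ERK, stood at 51.1, 58.1, 59.5 and 46.6 CPM. The 6-day and control intervals overlapped, as did the uninduced and 3-day ones, and its lowest ratio was 0.782-fold (0.704 to 0.869), 6-day over 3-day. Spred1 stood at 19.1, 18.4, 18.5 and 19.9 CPM, and all 4 intervals overlapped.

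**Figure D1:**
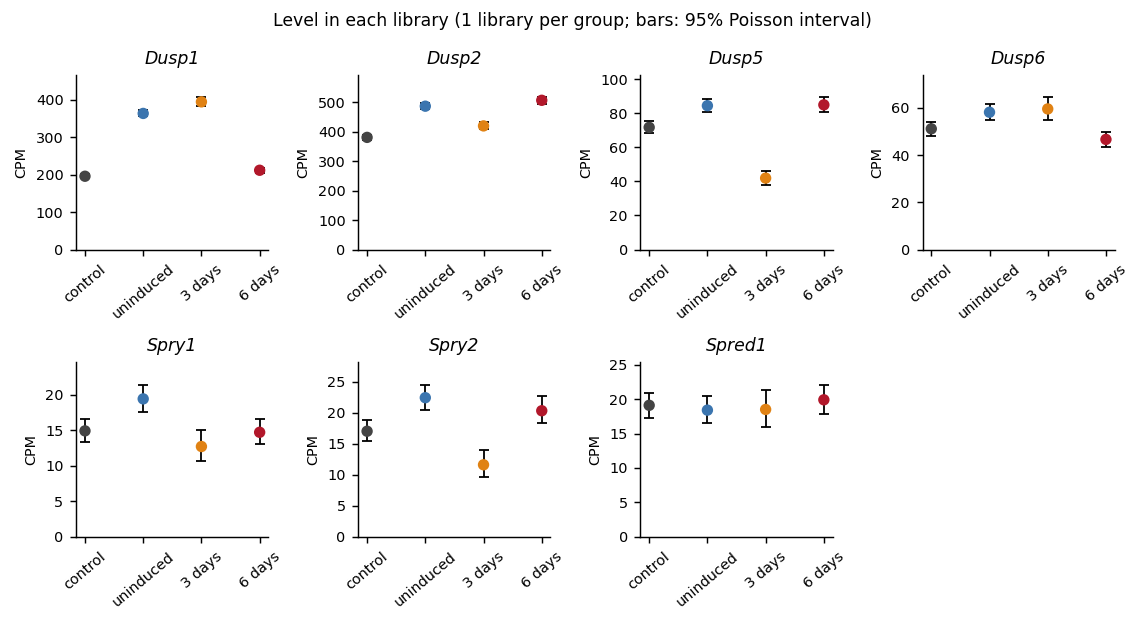
Level of each of the 7 genes (CPM, vertical axis from 0) in the control, uninduced, 3-day and 6-day libraries (horizontal axis), 1 library per group. Points are levels and bars are 95% Poisson intervals. Dusp1 stands at 364 and 395 CPM in uninduced and 3-day cells against 196 and 212 CPM in the other libraries, Dusp5 drops out of line at 41.9 CPM in 3-day cells, and Spred1 stays between 18.4 and 19.9 CPM.

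Counted against all genes, 1 of 7 members (Dusp1) was called higher in uninduced than in control cells, where 0.691% of 7235 genes were called higher and 0.760% lower. That split of 50 higher and 55 lower genes became 65 and 35 with TMM scaling factors and 66 and 32 with DESeq2 size factors, with Dusp1 called under both. In 3-day against uninduced cells 2 of 7 members (Dusp5 and Spry2) were lower, where 0.847% of 7082 genes were lower and 0.466% higher. In 6-day against uninduced cells 1 of 7 (Dusp1) was lower, where 0.310% of 7097 genes were lower and 0.733% higher. From 3 to 6 days 2 of 7 (Dusp5 and Spry2) were higher and 1 of 7 (Dusp1) lower, where 1.40% of 7118 genes were higher and 0.674% lower. In 3-day against control cells Dusp1 was higher and Dusp5 lower, where 0.910% of 7255 genes were higher and 1.39% lower, a split of 66 to 101 that became 74 to 59 with TMM. In 6-day against control cells none of the 7 was called, where 0.608% of 7235 genes were higher and 0.152% lower (44 and 11, or 53 and 2 with TMM). The 6 comparisons share libraries and are not independent of each other.

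Many but not all genes of the immediate early response stood high in the same libraries as Dusp1. On a list of 22 genes known to answer tissue dissociation and acute signals, 11 of the 21 measured were called higher in uninduced than control cells, with a median log2 ratio of 0.59 against -0.07 for all genes. On the same list 12 of 22 were lower and 3 higher at 6 than at 3 days, with a median of -0.66 against -0.02. At 3 days 13 of 22 were higher and 1 lower than in control, with a median of 0.66 against -0.08. Against uninduced cells 4 of 22 were higher and 3 lower at 3 days, with a median of -0.05 against -0.01. Socs3 and Nr4a1 were lowest there. Fosb, a subunit of AP-1, stood at 129, 256, 277 and 124 CPM, and the zinc finger factor gene Klf2 at 172, 567, 553 and 186 CPM. The heat shock gene Hspa1a stood at 10.8, 56.5, 448 and 18.9 CPM. The 12-gene immediate early score, the share of a cell's UMIs in Fos, Fosb, Jun, Junb, Egr1, Ier2, Atf3, Zfp36, Btg2, Klf2, Klf6 and Nr4a1, had a median of 0.332%, 0.580%, 0.535% and 0.339%. How cells were handled in each library is not given, so handling and group cannot be told apart.

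Cells of all libraries were therefore set in 3 terciles of that score, with the same limits (0.296% and 0.587% of UMIs) in each library. The highest tercile has no upper limit and held 21.4%, 49.3%, 44.1% and 21.1% of control, uninduced, 3-day and 6-day cells. Scores may still differ between libraries inside a tercile. In the middle tercile Dusp1 stood at 237 CPM in control and 261 CPM in 6-day cells, and at 278 CPM in uninduced and 354 CPM in 3-day cells. In control, uninduced, 3-day and 6-day cells it stood at 433, 574, 620 and 461 CPM in the highest tercile, and at 102, 146, 160 and 104 CPM in the lowest. The uninduced and 3-day libraries were still above the other pair in each tercile, although in the middle one the uninduced (266 to 291) and 6-day (248 to 274) intervals overlapped, but the log2 ratio of uninduced to control, 0.89 over all cells, was 0.23 in the middle, 0.40 in the highest and 0.52 in the lowest tercile, none past 1.5-fold. The ratio of 6-day to uninduced, -0.78 over all cells, was -0.09, -0.31 and -0.48. The ratio of 3-day to control, 1.00 over all cells, was 0.58 in the middle, 0.52 in the highest and 0.65 in the lowest tercile, and that of 6-day to 3-day, -0.90 over all cells, was -0.44, -0.43 and -0.62. Both were past 1.5-fold in the lowest tercile and not in the others. Without cells of other types the ratios of uninduced to control and 6-day to uninduced were 0.89 and -0.79.

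Dusp5 kept its low 3-day level within terciles of the score. In the lowest tercile the 3-day level was 16.9 CPM, against 45.7 CPM in control, 33.6 CPM in uninduced and 44.4 CPM in 6-day cells. In the middle tercile the control, uninduced, 3-day and 6-day levels were 76.4, 61.3, 29.9 and 97.6 CPM, and in the highest 150, 136, 73.5 and 193 CPM. The log2 ratio of 3-day to uninduced was -0.95, -1.01 and -0.88 in the lowest, middle and highest tercile, past 1.5-fold in each. In the middle tercile 6-day cells also stood above uninduced ones, with a log2 ratio of 0.66 against 0.01 over all cells. Spry2 was lowest in 3-day cells too, at 12.1 CPM against 18.9 to 24.1 in the middle tercile and 14.6 against 29.6 to 36.3 in the highest. In the middle tercile its 3-day interval (8.85 to 16.1) met those of control and uninduced cells. In the lowest tercile its 3-day level of 7.29 CPM rests on 22 UMIs, and its interval overlapped those of the other libraries. Dusp2 stood highest in 6-day cells in each tercile, at 1033 CPM against 694 to 755 in the highest. Score genes differ between libraries in their own ways, as Nr4a1 stood at 99.5 CPM in 3-day against 207 in uninduced cells, and a score without Nr4a1 gave Dusp5 a middle-tercile log2 ratio of -1.10.

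**Figure D2:**
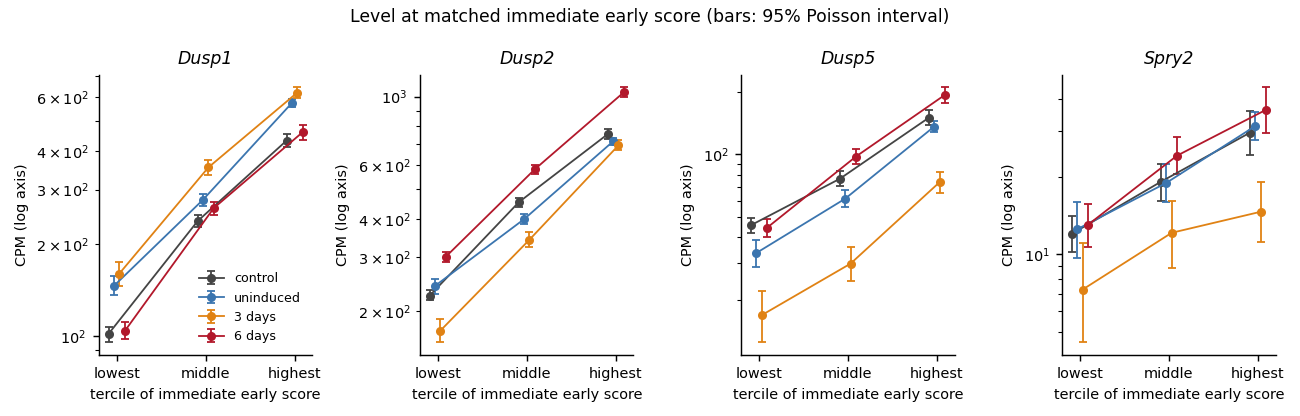
Levels of Dusp1, Dusp2, Dusp5 and Spry2 (CPM, log axis) in cells of the lowest, middle and highest tercile of the immediate early score (horizontal axis), with 1 line per library and 95% Poisson intervals as bars. Lines rise from left to right in all 4 panels, the 3-day line for Dusp5 runs below the others at 16.9, 29.9 and 73.5 CPM, and the control and uninduced lines for Dusp1 lie closer (237 and 278 CPM in the middle tercile) than over all cells (196 and 364 CPM).

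For Dusp1 and Dusp5 the shares of cells with at least 1 UMI stood in the same order as the levels. In cells thinned to 4700 UMIs, Dusp1 was found in 49.3%, 68.8%, 69.9% and 52.4% of control, uninduced, 3-day and 6-day cells, against 65.7%, 80.8%, 83.7% and 65.7% before thinning. Dusp5 was found in 25.6%, 27.2%, 16.5% and 29.6%, against 38.6%, 39.9%, 25.5% and 41.3% before. Shares of the low members did not keep the order of their levels. Spry2 was found in 6.49%, 7.64%, 5.79% and 8.77% of thinned cells, highest at 6 days, and its 3-day interval (4.48% to 7.35%) overlapped that of control (5.53% to 7.56%). Spry1 had its lowest share at 6 days (6.27%) and its lowest level at 3 days. Dusp6 had a lower share in uninduced (20.6%) than control cells (21.1%), with overlapping intervals, and a higher level. Thinning left out 351, 676, 204 and 374 shallower cells. In barcodes of 10 to 100 UMIs, taken as RNA outside cells, Dusp1 stood at 307, 488, 542 and 344 CPM. Dusp2 stood at 587, 650, 605 and 781 CPM there, Spry2 at 31.9, 96.8, 38.0 and 62.6 CPM, and Dusp5 at 52.9, 62.4, 34.8 and 71.5 CPM. Dusp1, Dusp2 and Spry2 were above their levels in the cells of each library. For Spry2 the cell levels were 17.0, 22.4, 11.6 and 20.3 CPM. What part such RNA has in the Spry2 differences between libraries was not tested. No cell type known to lack these genes was at hand to give a background share, so the shares say how many cells held a UMI and not how many expressed the gene.

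The remaining results compare classes of cells inside each library and were tested with edgeR over the 4 libraries, with library as a block and Benjamini-Hochberg adjustment over all genes tested. The p-values rest on the spread between these 4 libraries, which come from 4 different groups, after each gene's spread is drawn toward a trend over all genes. The SE is the absolute log2 fold change over the square root of the test's F statistic. The 5 contrasts divide the same cells in different ways and are not independent. Levels are shares of UMIs, so a lower level in a class of deeper cells need not mean fewer transcripts per cell.

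Along the immediate early score, 6 of 7 members were higher in the highest tercile of each library's cells than in the lowest, and Spred1 was not called. The background is 20.4% of 10569 genes called higher and 18.9% lower. None of the 7 is among the score's 12 genes, which were left out of this test. Dusp1 stood at 376 against 90.3 CPM in control, 684 against 182 in uninduced, 712 against 200 in 3-day and 400 against 87.4 in 6-day cells, and the classes did not overlap over the libraries. Its log2 fold change was 2.05 ± 0.06 (SE), higher in 4 of 4 libraries (adjusted p = 2.36e-16).

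Dusp5 stood at 122 against 39.8, 160 against 41.3, 85.0 against 18.3 and 158 against 37.8 CPM, a log2 fold change of 1.96 ± 0.07 (adjusted p = 1.17e-14). The 3-day cells were lowest in both classes. Dusp2 stood at 669 against 208, 829 against 297, 779 against 210 and 880 against 252 CPM, a log2 fold change of 1.77 ± 0.06 (adjusted p = 4.83e-15). Ranked by log2 fold change among all 10569 genes, Dusp1 came 23rd, Dusp5 31st and Dusp2 45th.

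Spry1 (log2 fold change 1.33 ± 0.11, adjusted p = 5.60e-09), Spry2 (1.20 ± 0.11, adjusted p = 1.26e-08) and Dusp6 (0.95 ± 0.07, adjusted p = 9.68e-10) followed, each higher in 4 of 4 libraries, by 1.63-fold to 2.81-fold. Spred1 stood at 18.1 against 21.6, 17.2 against 18.0, 19.3 against 17.6 and 22.3 against 20.3 CPM, higher in 2 and lower in 2 libraries (log2 fold change 0.01 ± 0.11, adjusted p = 0.954). Cells of the highest tercile were shallower, with a median of 4762 to 5727 UMIs against 8946 to 9988 in the lowest. They were also more often low-cycling, 47.2% to 59.8% against 14.2% to 23.1%. Within low-cycling cells alone all 6 remained higher, with log2 fold changes of 0.67 (Dusp6) to 2.00 (Dusp1).

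By cell cycle, the same 6 members made up a smaller share of UMIs in cycling cells, and the share of Spred1 was level. G2/M-high cells are the 20% of all cells with the highest share of UMIs in genes of G2 and mitosis. S-high cells are the 25% of the rest with the highest share in S phase genes. Low-cycling cells lie at or below the median of both shares outside those classes. The classes are cuts of a range, and 253 and 690 of 8883 cells lay within 10% of the G2/M and S limits.

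Against low-cycling cells, 6 of 7 members were lower in G2/M-high cells, where 26.4% of 10311 genes were lower and 27.0% higher. Dusp5 stood at 42.5 against 124 CPM in control, 52.1 against 146 in uninduced, 26.1 against 78.7 in 3-day and 52.8 against 136 in 6-day cells. The ratio was alike in the 4 libraries, 0.331-fold to 0.387-fold, whatever their overall level (log2 fold change -1.53 ± 0.06, adjusted p = 4.96e-18). Dusp2 stood at 275 against 617, 360 against 736, 341 against 687 and 385 against 729 CPM (log2 fold change -1.09 ± 0.04, adjusted p = 1.28e-17).

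Spry2 stood at 14.7 against 24.7 CPM in control, 16.4 against 33.2 in uninduced and 18.0 against 31.1 in 6-day cells, and at 0.504-fold of 17.9 CPM in 3-day cells, on 29 UMIs in the G2/M-high class (log2 fold change -0.92 ± 0.10, adjusted p = 3.47e-08). Dusp6 stood at 43.4 against 74.3, 54.1 against 87.1, 50.6 against 87.3 and 41.5 against 69.7 CPM (log2 fold change -0.80 ± 0.06, adjusted p = 2.61e-11). Spry1 (-0.59 ± 0.11, adjusted p = 6.94e-05) and Dusp1 (-0.56 ± 0.04, adjusted p = 5.34e-11) were lower in 4 of 4 libraries as well. Spred1 stood at 17.2 against 19.2, 19.1 against 16.2, 19.5 against 18.8 and 19.3 against 19.3 CPM (log2 fold change -0.03 ± 0.11, adjusted p = 0.857).

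In S-high cells 6 of 7 members were lower, where 30.4% of 10181 genes were lower and 28.7% higher. The log2 fold changes were -1.36 ± 0.06 for Dusp5 (adjusted p = 1.74e-16), -1.13 ± 0.05 for Dusp2 (adjusted p = 1.02e-16) and -1.10 ± 0.11 for Spry2 (adjusted p = 3.84e-09). Dusp6 had -1.06 ± 0.07 (adjusted p = 1.56e-12), Spry1 -0.99 ± 0.13 (adjusted p = 2.74e-07) and Dusp1 -0.82 ± 0.06 (adjusted p = 1.78e-12). Each was lower in 4 of 4 libraries, as when Dusp6 stood at 42.0 against 74.3, 35.7 against 87.1, 43.2 against 87.3 and 33.4 against 69.7 CPM. Spred1 was again not called (0.06 ± 0.12, adjusted p = 0.671).

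Depth and immediate early score differ between these classes. The median was 10918 to 12435 UMIs in G2/M-high, 9263 to 9951 in S-high and 4714 to 5324 in low-cycling cells, and the median score was 0.261% to 0.465%, 0.234% to 0.386% and 0.447% to 0.824%. With such depths a lower share of UMIs need not be a lower count per cell. In control, Dusp1 had 1428 UMIs over 579 G2/M-high cells and 1183 over 815 low-cycling cells. Dusp5 had 312 and 568 UMIs in the same cells, and Dusp2 had 2015 and 2824. Dusp6 had 318 and 340, Spry1 112 and 91, and Spry2 108 and 113. Per G2/M-high cell in control, Dusp5 was thus lower, Dusp2 about level and the other called members higher. Within the middle tercile of each library's score Dusp1 was no longer called in G2/M-high (log2 fold change 0.03, adjusted p = 0.734) or S-high cells (-0.09, adjusted p = 0.343). Spry1 lost its G2/M call there (-0.17, adjusted p = 0.508) and in thinned cells (-0.17, adjusted p = 0.466), and Spry2 its S call in thinned cells (-0.37, adjusted p = 0.0566). Dusp5 kept both calls in the middle tercile (-1.03 and -0.76), as did Dusp2 (-0.66 and -0.62), Dusp6 (-0.67 and -0.89) and Spry2 (-0.71 and -1.39). Spry1 kept its S call there (-0.75, adjusted p = 0.0144).

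Cells with a Hlf UMI, a transcription factor gene of stem and early progenitor cells, held more Dusp1, and the other 6 members were not called. They made up 27.0% to 33.2% of a library. Dusp1 stood at 239 against 176 CPM in control, 417 against 340 in uninduced, 445 against 376 in 3-day and 263 against 193 in 6-day cells. It was higher in 4 of 4 libraries, by 1.18-fold to 1.36-fold (log2 fold change 0.31 ± 0.03, adjusted p = 1.46e-10), and the 2 classes overlapped over the libraries because the libraries differ in level. This was 1 of 7 members, where 5.64% of 10987 genes were higher and 8.41% lower.

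The other log2 fold changes by Hlf ran from -0.11 ± 0.05 (Dusp5, adjusted p = 0.168) to 0.09 ± 0.09 (Spred1, adjusted p = 0.598). The median score was somewhat higher with Hlf in each library, at 0.337% against 0.327% in control, 0.607% against 0.561% in uninduced, 0.549% against 0.527% in 3-day and 0.363% against 0.329% in 6-day cells. Dusp1 remained higher in the middle tercile of the score (0.26, adjusted p = 0.000117), in low-cycling cells (0.35, adjusted p = 6.51e-06) and in thinned cells (0.37, adjusted p = 6.26e-12). Dusp5 became called lower with Hlf in low-cycling cells (-0.28, adjusted p = 0.0395) and in the middle tercile (-0.31, adjusted p = 0.00823), and also without the uninduced library (-0.18, adjusted p = 0.0430). Dusp2 became called lower without the 6-day library (-0.09, adjusted p = 0.0297), without cells of other types (-0.07, adjusted p = 0.0473) and in the middle tercile (-0.13, adjusted p = 0.0253).

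In cells with an Il7r UMI, which encodes the interleukin-7 receptor of lymphoid progenitors, the 4 phosphatase genes made up a smaller share of UMIs. Such cells were 13.4%, 9.28%, 8.05% and 15.8% of the libraries. All told, 4 of 7 members were lower, where 10.3% of 10791 genes were lower and 10.5% higher. Dusp1 stood at 116 against 213 CPM in control, 241 against 382 in uninduced, 281 against 408 in 3-day and 128 against 235 in 6-day cells (log2 fold change -0.76 ± 0.05, adjusted p = 2.26e-15).

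Dusp6 had a log2 fold change of -0.40 ± 0.07 (adjusted p = 3.57e-05), Dusp5 of -0.38 ± 0.07 (adjusted p = 3.55e-05) and Dusp2 of -0.35 ± 0.04 (adjusted p = 3.40e-09), each lower in 4 of 4 libraries. Dusp2, for instance, stood at 315 against 394, 426 against 496, 325 against 432 and 400 against 536 CPM. Spry1 (-0.01 ± 0.12, adjusted p = 0.986), Spry2 (-0.08 ± 0.12, adjusted p = 0.720) and Spred1 (-0.04 ± 0.11, adjusted p = 0.838) were not called. For Spry2 in 3-day cells the level rests on 7 UMIs in cells with Il7r.

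Cells with an Il7r UMI were deeper (median 9872 to 11035 against 6517 to 7483 UMIs), more often G2/M-high (35.4% to 42.3% against 15.4% to 19.9%) and lower in score (0.246% to 0.438% against 0.345% to 0.599%). In thinned cells only Dusp1 was still called (log2 fold change -0.61, adjusted p = 1.84e-09), with Dusp2 at -0.10 (adjusted p = 0.424), Dusp5 at -0.14 (adjusted p = 0.598) and Dusp6 at -0.39 (adjusted p = 0.0809). Dusp1 alone was also called in low-cycling cells (-0.81, adjusted p = 6.13e-09) and in the middle tercile of the score (-0.33, adjusted p = 5.70e-05). In low-cycling cells the log2 fold changes of Dusp6 (-0.48, adjusted p = 0.243) and Dusp2 (-0.31, adjusted p = 0.0803) were about as large as over all cells, and that of Dusp5 was smaller (-0.07, adjusted p = 0.936). In the middle tercile Dusp6 had -0.16, Dusp2 -0.04 and Dusp5 0.19.

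**Figure D3:**
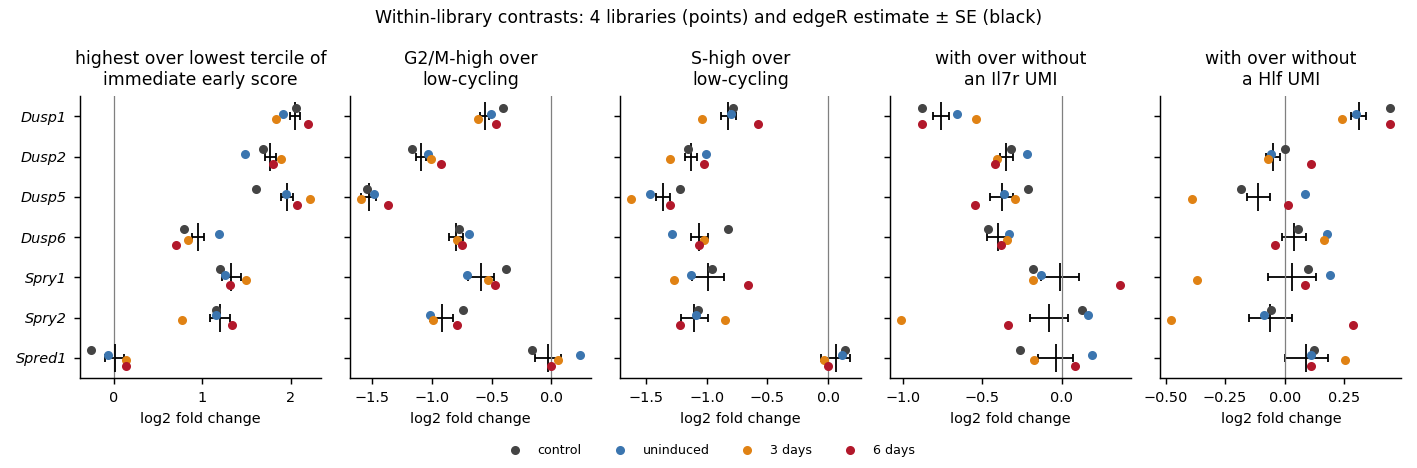
Log2 fold change of each of the 7 genes (rows) in 5 contrasts between classes of cells of the same library (panels, horizontal axes with their own ranges). Coloured points are the 4 libraries and black marks the edgeR estimate with its SE. In the first 3 panels 6 genes lie on one side of 0 in all libraries and Spred1 lies at 0.01, -0.03 and 0.06, and in the last only Dusp1, at 0.31, was called.

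Other genes of the pathway were read from lists. Of 8 further MAP kinase phosphatase genes only Dusp7 reached 10 CPM, at 10.6, 8.88, 7.14 and 8.71 CPM, and of 4 further Sprouty and Spred genes none did, with Spred2 highest at 7.30 to 9.27 CPM. Of 28 genes of the RAS and MAP kinase cascade, 21 or 22 were measured in each comparison of libraries and 0 were called in any. Over all genes 0.152% to 1.40% were called in a given direction, so a count of 0 on so short a list says little.

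Of 20 genes known to be induced by ERK, 5 of 14 measured were called higher in uninduced than control cells (median log2 ratio 0.37, against -0.07 and 0.691% called over all genes). This list shares Egr1, Fos, Fosb and Ier2 with the immediate early score, and Ier3 with the dissociation list. Its counts are therefore not independent of those given above. In 3-day against uninduced cells 3 of 14 were lower (0.847% of all genes), among them Maff, a small MAF factor gene, at 9.86 against 17.8 CPM, and Ier3, an immediate early gene, at 150 against 244 CPM. Along the immediate early score 12 of the 15 tested were higher and 1 lower, where 20.4% and 18.9% of all genes were. In G2/M-high cells 13 of 18 were lower and 0 higher, where 26.4% and 27.0% of all genes were. In S-high cells 14 of 18 were lower and 1 higher, where 30.4% and 28.7% were. In cells with an Il7r UMI 11 of 19 were lower and 1 higher, where 10.3% and 10.5% were. By Hlf 2 of 19 were higher and 0 lower, where 5.64% and 8.41% were, among them Ier3 (log2 fold change 0.16 ± 0.03, adjusted p = 3.02e-05). Cascade genes lay near or below those shares of all genes, with 3 higher and 4 lower of 27 along the score, 5 and 2 in G2/M-high cells, 7 and 6 in S-high cells, 0 and 1 by Il7r and 0 and 1 by Hlf.

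Among 7333 genes at 10 CPM or more in any library, other than the members, likeness of pattern was measured as the mean absolute difference in centred log2 (CPM + 1) over the 4 libraries, and it is given for the 3 members that span 1.5-fold. Closest to Dusp1 were Fosb (0.0888), Jun (0.100, at 498, 786, 1031 and 493 CPM) and Rhob (0.108, at 83.6, 129, 160 and 76.3 CPM). Closest to Dusp5 were the anion channel gene Lrrc8a (0.0339, at 12.3, 14.0, 6.20 and 14.2 CPM), the receptor gene Notch2 (0.0948, at 27.2, 31.5, 18.8 and 34.8 CPM) and the cytokine gene Osm (0.0983, at 11.8, 14.6, 7.79 and 12.9 CPM). Closest to Spry2 were Osm (0.0445), Evi2a (0.0461, at 22.9, 29.5, 15.2 and 24.6 CPM) and Klf13 (0.0741, at 64.8, 81.2, 51.8 and 79.6 CPM). With 4 libraries such a list describes these libraries only.

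In single cells thinned to the same depth, 10 of 21 pairs of members were found together more often than the product of their shares in all 4 libraries. Dusp5 and Spry1 were found together 1.14 to 1.33 times as often, and Dusp1 and Spry1 1.10 to 1.18 times. Dusp2 and Spred1 were below 1 in all 4, at 0.953 to 0.987 times. These ratios are small, rest on few UMIs per cell and are given with no test. Pairs of other genes were not counted, so the count does not set these pairs apart from others.

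A further split, by cells with and without a Rbpj UMI, was chosen after values were seen and is a description with no test. It used thinned cells, 42.9% of which held a Rbpj UMI at 3 days and 43.8% at 6 days. At 6 days Dusp5 stood at 64.2 CPM with and 115 without Rbpj (0.558-fold, 0.476 to 0.652), and at 3 days at 32.3 against 50.7 CPM (0.638-fold, 0.474 to 0.852). Dusp2 stood at 456 against 600 CPM at 6 days (0.760-fold, 0.714 to 0.808) and 336 against 515 CPM at 3 days (0.652-fold, 0.596 to 0.712). Dusp1 was lower with Rbpj at 3 days, at 313 against 431 CPM, and close at 6 days, at 207 against 215 CPM. In control cells, where Rbpj comes from the intact gene, Dusp5 stood at 81.3 against 77.5 CPM and Dusp2 at 393 against 405 CPM. In uninduced cells the order was the other way, with Dusp5 at 117 against 82.6 CPM (1.41-fold, 1.06 to 1.86) and Dusp2 at 559 against 493 CPM (1.13-fold, 0.998 to 1.28), over 102 cells with a Rbpj UMI.

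Cells with Rbpj in the induced libraries were less often low-cycling, 15.2% against 42.2% at 3 days and 23.1% against 47.0% at 6 days, and had a lower median score, 0.404% against 0.553% and 0.277% against 0.340%. Terciles of the score were set anew on thinned cells here, with limits of their own. From lowest to highest, Dusp5 at 6 days stood at 38.9 against 51.7, 75.6 against 123 and 117 against 202 CPM. The interval of the first of these folds included 1 (0.541 to 1.04). At 3 days Dusp5 stood at 10.5 against 18.8, 32.1 against 25.5 and 53.9 against 74.8 CPM. The lowest tercile rests on as few as 7 and 10 UMIs. Each 3-day interval included 1 (0.180 to 1.62, 0.684 to 2.34 and 0.484 to 1.05). Dusp2 was lower with Rbpj in each tercile of both induced libraries, at 0.721-fold to 0.879-fold, with intervals below 1. Dusp1 at 6 days stood at 0.955-fold, 1.01-fold and 1.31-fold (1.11 to 1.53). What part the cell cycle has in the split was not tested. By the Notch target Hes1 the order was the other way. Dusp5 was 1.49-fold to 1.59-fold and Dusp2 1.42-fold to 1.55-fold higher in cells with a Hes1 UMI in the 4 libraries. Those cells had a higher median score, for example 0.383% against 0.277% in control. They were also more often low-cycling, 39.6% to 47.2% against 29.7% to 34.6%. Within terciles Dusp2 ran from 1.11-fold (3-day, lowest) to 1.54-fold (uninduced, middle). Dusp5 was 0.852-fold (0.402 to 1.60) in the uninduced middle tercile. It had 0 UMIs in the 8 3-day cells with Hes1 of the lowest tercile, and was higher with Hes1 in the remaining ones.

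**Figure D4:**
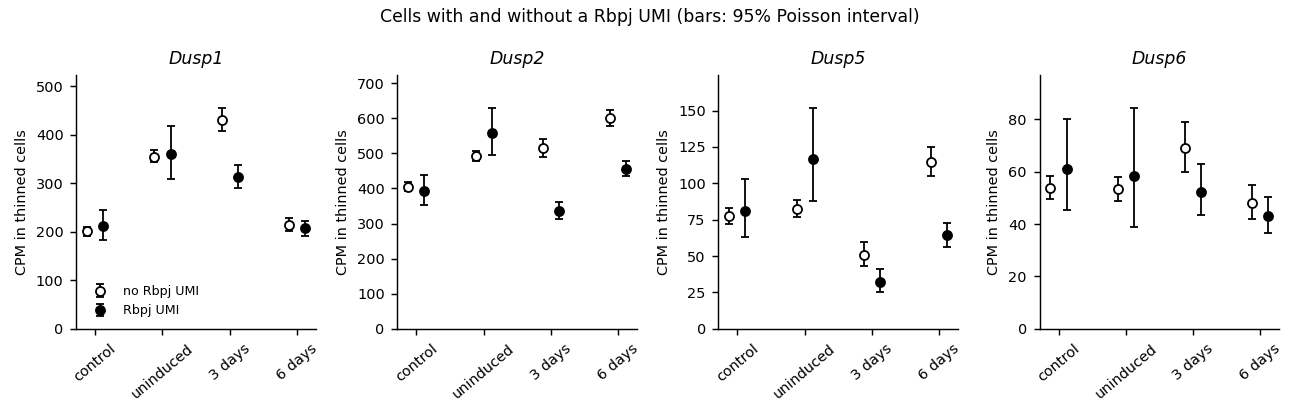
Levels of Dusp1, Dusp2, Dusp5 and Dusp6 (CPM in cells thinned to 4700 UMIs, vertical axes from 0) in cells without (open) and with (filled) a Rbpj UMI in each library, with 95% Poisson intervals as bars. In the 6-day library Dusp5 lies at 115 CPM without and 64.2 CPM with Rbpj, whereas in control the points lie at 77.5 and 81.3 CPM with overlapping intervals.

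The gene models bear on what was counted. On GRCm38 (GENCODE vM21) Dusp2 lies at chr2:127336159-127338376 and Spred1 at chr2:117121374-117182279, both on the plus strand, Dusp6 at chr10:99263231-99267489 (plus) and Spry2 at chr14:105891947-105896819 (minus). None of these overlaps another annotated gene. Dusp5 (chr19:53529109-53542431, plus) overlaps the antisense gene AC137853.2, Spry1 (chr3:37639947-37644598, plus) overlaps Gm42922 on the other strand, and Dusp1 (chr17:26505590-26562128, minus) overlaps 4 annotated genes, among them Ergic1 on the other strand. Whether counting used strand is not given in the sources used here, so reads of these 3 genes and of partners on the other strand may not be told apart. The processed pseudogene AC122252.4 and the sense intronic gene AC122252.1 lie on the same strand as Dusp1, where strand would not part them from it. No 31-base word of the last 500 bases of any member's transcripts occurred in another gene.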

How the data were processed

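LMPPs from 4 groups were measured as 4 libraries. The members and gene lists were chosen with earlier results of these data known. The authors deposited UMI counts for all barcodes, and log2 values (log2 of the count over a cell's size factor, plus 1) that served here only to define the 8883 cells; the log2 values matched the counts for all values checked. Seurat and mm10 are named per the submitters' processing notes; the sources used here do not give the aligner, the counter or the annotation. Doublets were kept. Counts were summed by library or by class of cells within it, and given as CPM with exact Poisson intervals, conditional exact intervals for folds and exact binomial (Clopper-Pearson) intervals for shares.

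Contrasts within libraries used edgeR 4.0.16 (R 4.3.3) quasi-likelihood tests with TMM scaling and filterByExpr, calls at an adjusted p under 0.05, and library as a block, because both sums of a contrast come from the same library; the code was tested on simulated data. Genes used to define a class were left out of its test. Alternatives were DESeq2 1.42.0, other scaling, filters and pseudocounts, each library left out, no block, thinned cells, cells of other types left out, low-cycling cells and terciles of the immediate early score. The highest and lowest pooled terciles, a score without Nr4a1, the middle tercile in the cell cycle contrasts, low-cycling cells in the immediate early contrast, and cells without Hlf and Il7r UMIs were added after seeing the data. Named genes were the members, up to 2 genes at each end of each list, the 3 nearest patterns of each member past 1.5-fold, and Rbpj, Hes1, Hlf and Il7r. Flt3, Kit and Cd34, named outside that rule as checks, were chosen after their values were seen. Map2k7, with 2 identifiers, was left out. Some single genes of the cascade list are not reported here.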

Additional observations from a re-analysis of the deposited data

Results flagged for a closer look

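In 35 sets of 4 library ratios (7 genes in 5 contrasts), 2 held a library far from the other 3, where chance alone gives about 1 in 20. Spred1 in cells with a Hlf UMI was 1.19-fold of its level in cells without one in the 3-day library, against 1.08 to 1.09 in the other libraries. Spry1 in cells with an Il7r UMI was 1.29-fold in the 6-day library, against 0.881 to 0.913 in the others. Both intervals (0.861 to 1.62 and 0.965 to 1.71) include no difference.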

How the results depend on the processing

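Of 462 alternative values of the members' log2 ratios between libraries, 326 stayed within counting error of the reported value, 136 moved beyond it and 0 changed sign past 1.5-fold. The count of members past 1.5-fold went from 2 to 1 (Dusp5) for 3-day against uninduced cells when cells were thinned. Uninduced against control went from 1 to 0 in the lowest, middle and highest tercile of the score and in the middle tercile without Nr4a1. For 6-day against uninduced it went from 1 (Dusp1) to 0 in the lowest and highest tercile, to 1 (Dusp5) in the middle, and to 2 (Dusp2 and Dusp5) in the middle tercile without Nr4a1. In the lowest tercile it was 5 for 6-day against 3-day and 4 for 3-day against control. Calls over all genes rose there too. For 6-day against 3-day, 239 of 7235 genes were higher and 289 lower, against 100 and 48 of 7118 over all cells. For 3-day against control, 155 of 7331 were higher and 297 lower, against 66 and 101 of 7255. In 3-day cells of that tercile Spry1 and Spry2 rest on 18 and 22 UMIs. No other alternative moved these counts by over 1.5 times.

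By Hlf, 1 member was called. The count was 0 without the library block, 2 without cells of other types, 2 in low-cycling cells, 3 in the middle tercile, and 1 to 2 leaving out each library in turn. By Il7r, 4 were called, and 1 without the library block (Dusp6), 1 in thinned cells, 1 in low-cycling cells and 1 in the middle tercile. Folds were about as large where calls were lost without the block (Dusp1 -0.75, Dusp2 -0.35, Dusp5 -0.33) and, for Dusp6 (-0.48) and Dusp2 (-0.31), in low-cycling cells. Without the block Dusp1 had an adjusted p of 0.723 by Hlf, 0.109 by Il7r and 0.109 in G2/M. The counts by cell cycle and score stayed at 4 to 6 under all alternatives.

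Of 399 contrast values 349 kept side and direction, 23 crossed the threshold and 27 changed sign, 25 of them not called to begin with. The other 2, both in the middle tercile, are Dusp5 by Il7r (0.19) and Dusp1 in G2/M (0.03). By Hlf the others were Spry1 with DESeq2 (-0.01) and leaving out each library in turn (-0.03 to 0.09), Dusp2 thinned (0.02), and Dusp6 (-0.15) and Spred1 (-0.03) in the middle tercile. By Il7r, Spry1 came to 0.00 without TMM, -0.16 to 0.07 leaving out each library, 0.04 thinned and 0.48 in the middle tercile. Leaving out each library, Spred1 ran from -0.11 to 0.06 and Spry2 from -0.18 to 0.06, with Spry2 at 0.05 in low-cycling cells. Spred1 in G2/M came to 0.03 without TMM, 0.01 with no filter and -0.11 to 0.04 leaving out each library, and in S to -0.02 thinned. By score it came to -0.04 without TMM, -0.03 with no filter, -0.08 to 0.11 leaving out each library, -0.23 thinned, -0.00 without other cell types and -0.22 in low-cycling cells. Where no cause is given above, the cause was not tested. Depth limits Spry1, Spry2 and Spred1 most, with 124 to 469 UMIs per library.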
